A study of Mus musculus with 7 samples.

Results

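Interferon-stimulated genes are the genes that a cell transcribes after an interferon binds its receptor. A list of 40 of them was followed through 7 RNA sequencing libraries of mouse B cells, in which 11641 genes were named in at least 1 library. Members were listed by gene name, and the rule uses no measured value. Of the 40 members, 37 were assembled under their own name in all 7 libraries and could be compared. Transcripts of Ifi27l2a and Eif2ak2 also overlapped neighbouring genes in every library. Oasl2 was assembled only with anti-IgM at 8 h, Ifi44 was assembled in no library, and Irf9 was never assembled apart from its upstream neighbour Rnf31.

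The B cells were primary cells from wild-type C57BL/6 mice. One library came from unstimulated cells at 0 h. The other 6 came from cells given anti-IgM, an antibody that cross-links the B cell antigen receptor, BAFF, a survival cytokine of the TNF family, or both, each at 8 h and at 30 h. The comparisons ask how these stimuli, alone and together, change the transcripts of B cells. Each condition was 1 library, so no difference below has a replicate check, and no p-value was computed. Every cultured library had a stimulus, which means that the effects of culture time and of stimulus cannot be told apart. The labels do not say how the B cells were purified, how many mice were pooled or what doses were given.

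Type I interferons bind the receptor made of Ifnar1 and Ifnar2, and the kinases Jak1 and Tyk2 then phosphorylate transcription factors such as Stat2. Phosphorylated Stat2 and Irf9 are parts of a complex, ISGF3, that binds the interferon-stimulated response element (ISRE) upstream of many of these genes. The products include sensors of viral RNA, enzymes that degrade or block RNA, membrane proteins that hold back enveloped viruses, and the transcription factors Irf1 and Irf7, which amplify the response. Resting B cells express many of them at a low level, and several are also controlled by other signals.

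The deposited values are FPKM (fragments per kilobase of transcript, scaled to the depth of the library) of transcripts assembled in each library separately. A gene's FPKM is here the sum over its assembled transcripts of at least 300 bases, given with an interval of 2 SD of counting error either way. The library depths worked out from these values were 18.6 to 28.3 M mapped reads, and 10164 to 10602 genes were named per library. A gene was counted as higher or lower in one library than in another when the intervals stayed apart and the FPKM values, each with 1 added, were at least 2-fold apart, a log2 difference of 1. Because a gene can be pieced together differently in each library, a second value, the exon level, was set beside it. Each assembled transcript on either strand gave it a share of its reads, by the part of its length over the gene's exons. The sum was set per kilobase of exon and per depth of the library. A transcript that runs over a neighbouring gene thus gives each gene its average. The exon level is calculated back from the same FPKM and is no independent evidence. A difference is said to hold on the exon level when that value plus 1 was at least 2-fold apart as well, in the same direction.

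The B cell markers were assembled in every library, except Cd79a. Of the 17 macrophage and monocyte markers, 15 were assembled in the unstimulated library and 9 to 13 in the others. Their summed FPKM was 411 in the unstimulated library, 34.2 to 40.4 at 8 h and 67.3 to 116 at 30 h. On the exon level the sum was 429 unstimulated and 31.1 to 327 in the others. Cd68, which was not assembled as a separate gene, gave most of that sum with anti-IgM at 8 h and with both at 8 h and 30 h. Conventional dendritic cell markers (3 to 7 of 8 assembled) summed to 52.4 FPKM unstimulated and 13.2 to 21.2 in the others, and erythroid markers (0 to 2 of 9) to 221 and 0 to 48.1. T cell markers (1 to 3 of 10 assembled) summed to 13.3 FPKM unstimulated and 2.5 to 7.1 in the others. NK cell markers (2 to 3 of 8) summed to 8.2 FPKM unstimulated, 7.1 to 8.1 at 8 h and 2.3 to 4.4 at 30 h. None of the 8 neutrophil markers was assembled in any library, and neither was Siglech, a defining marker of plasmacytoid dendritic cells. Of the 10 markers on that list 4 to 7 were assembled in each library, with sums of 190.3 to 419.6 FPKM, mostly from Spib, which B cells also express. In such bulk samples fewer cells of a type and less RNA per cell cannot be told apart.

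The sequences upstream of 6 members are shown because they carry the pattern at 8 h that held on the exon level: 5 were higher wherever anti-IgM was present, and Samd9l was lower. Each runs over the 250 bases before the RefSeq transcription start (build GRCm38.p6), 5′ to 3′ on the strand of the gene. Capitals mark matches to the ISRE letters GAAANNGAAA, searched on both strands, so that a match on the other strand reads TTTCNNTTTC. The regions are chr4:156200819-156201068 (minus strand) for Isg15, chr19:34640639-34640888 (plus) for Ifit1, chr8:71537473-71537722 (minus) for Bst2, chr5:114922990-114923239 (plus) for Oasl1, chr11:101448162-101448411 (plus) for Ifi35 and chr6:3399572-3399821 (minus) for Samd9l.
Isg15: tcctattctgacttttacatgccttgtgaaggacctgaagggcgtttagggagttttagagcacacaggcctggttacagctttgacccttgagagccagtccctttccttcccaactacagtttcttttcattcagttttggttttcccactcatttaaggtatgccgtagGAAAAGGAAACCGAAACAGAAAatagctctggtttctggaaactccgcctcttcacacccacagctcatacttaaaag
Ifit1: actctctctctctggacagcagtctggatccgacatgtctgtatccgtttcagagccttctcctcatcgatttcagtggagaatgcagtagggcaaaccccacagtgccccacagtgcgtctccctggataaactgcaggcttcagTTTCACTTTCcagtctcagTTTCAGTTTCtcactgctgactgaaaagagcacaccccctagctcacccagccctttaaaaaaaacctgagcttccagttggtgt
Bst2: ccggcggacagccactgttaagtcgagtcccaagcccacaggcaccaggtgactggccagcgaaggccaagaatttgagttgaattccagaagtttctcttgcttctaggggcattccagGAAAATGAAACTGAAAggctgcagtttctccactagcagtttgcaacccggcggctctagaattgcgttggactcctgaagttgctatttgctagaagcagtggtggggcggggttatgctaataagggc
Oasl1: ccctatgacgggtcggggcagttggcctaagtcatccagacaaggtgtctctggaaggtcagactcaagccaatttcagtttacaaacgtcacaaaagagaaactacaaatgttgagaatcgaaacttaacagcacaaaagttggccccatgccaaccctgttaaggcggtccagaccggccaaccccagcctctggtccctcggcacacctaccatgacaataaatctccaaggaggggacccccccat
Ifi35: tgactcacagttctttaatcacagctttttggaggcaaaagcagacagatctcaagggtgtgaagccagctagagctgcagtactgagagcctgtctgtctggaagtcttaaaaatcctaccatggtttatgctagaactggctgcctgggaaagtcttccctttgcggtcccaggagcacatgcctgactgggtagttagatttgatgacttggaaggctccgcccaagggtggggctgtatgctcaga
Samd9l: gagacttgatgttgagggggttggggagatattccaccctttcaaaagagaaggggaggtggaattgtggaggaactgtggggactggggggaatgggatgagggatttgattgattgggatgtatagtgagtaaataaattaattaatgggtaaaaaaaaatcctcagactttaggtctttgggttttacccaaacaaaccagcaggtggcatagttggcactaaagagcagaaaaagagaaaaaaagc

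Isg15 carried 3 overlapping matches, the nearest beginning 66 bases before the start. Ifit1 had 2 separate matches and Bst2 had 2 overlapping ones. The other 3 sequences hold none of these letters in the window, from which nothing follows about the factors that act there. In all, 30 of the 40 members had a RefSeq window of 300 bases, from 250 before to 50 after a start, and 15 of them held the ISRE letters in at least 1 window. The same letters were found for 1079 of 27025 genes (3.99%) in windows of the same length. The letters TTCNNNGAA of the gamma-activated site, which can overlap an ISRE, were found for 8 of the 30 members (26.7%) and for 9.55% of all genes. The ISRE letters were about as frequent among members that were counted as among the rest. Of 16 members with a window that were counted against the unstimulated library in at least 1 comparison 9 held them, and of 11 that were compared and never counted 6 did.

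Of the single stimuli, anti-IgM at 8 h was the one under which most members were counted above the unstimulated library. With anti-IgM alone 7 of 37 members were counted higher, of which 5 held on the exon level (Isg15, Ifit1, Oasl1, Ifi35 and Bst2), and 2 were lower. Among all 9836 genes compared there, 10.8% were counted higher and 10.6% lower, so the share of members that were higher lay above the background and the share that were lower lay below it. The median log2 difference was 0.24 over the members and 0.05 over all genes, and 0.52 and 0.10 on the exon level. With both stimuli at 8 h, 6 members were higher and 2 lower, where 12.3% and 8.87% of all genes were, and the same 5 members held. BAFF alone at 8 h gave 1 member higher and 2 lower (background 5.6% and 4.31%), with a median of 0.29 over the members and 0.12 over all genes.

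At 30 h the balance was the other way round in the libraries with anti-IgM, though not with BAFF alone. Anti-IgM at 30 h had no member counted higher and 8 lower, 5 of which held, beside 8.44% and 7.34% of all genes. BAFF at 30 h had 2 members higher, neither of which held, and 2 lower, of which 1 held (background 5.21% and 4.1%). Both stimuli at 30 h had 1 higher and 5 lower, 3 of them held (background 8.35% and 7.86%). The medians over the members were -0.08, -0.04 and -0.14 with anti-IgM, BAFF and both, against 0.06, 0.07 and 0.02 over all genes. All 6 of these comparisons use the same unstimulated library. In total 18 members were counted in at least 1 of them, 12 held at least once, and 19 were compared and never counted. The share of all genes counted at least once was not computed, and neither was the share that held. These totals, and the numbers of members that held here and below, therefore have no background beside them.

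**Figure D1:**
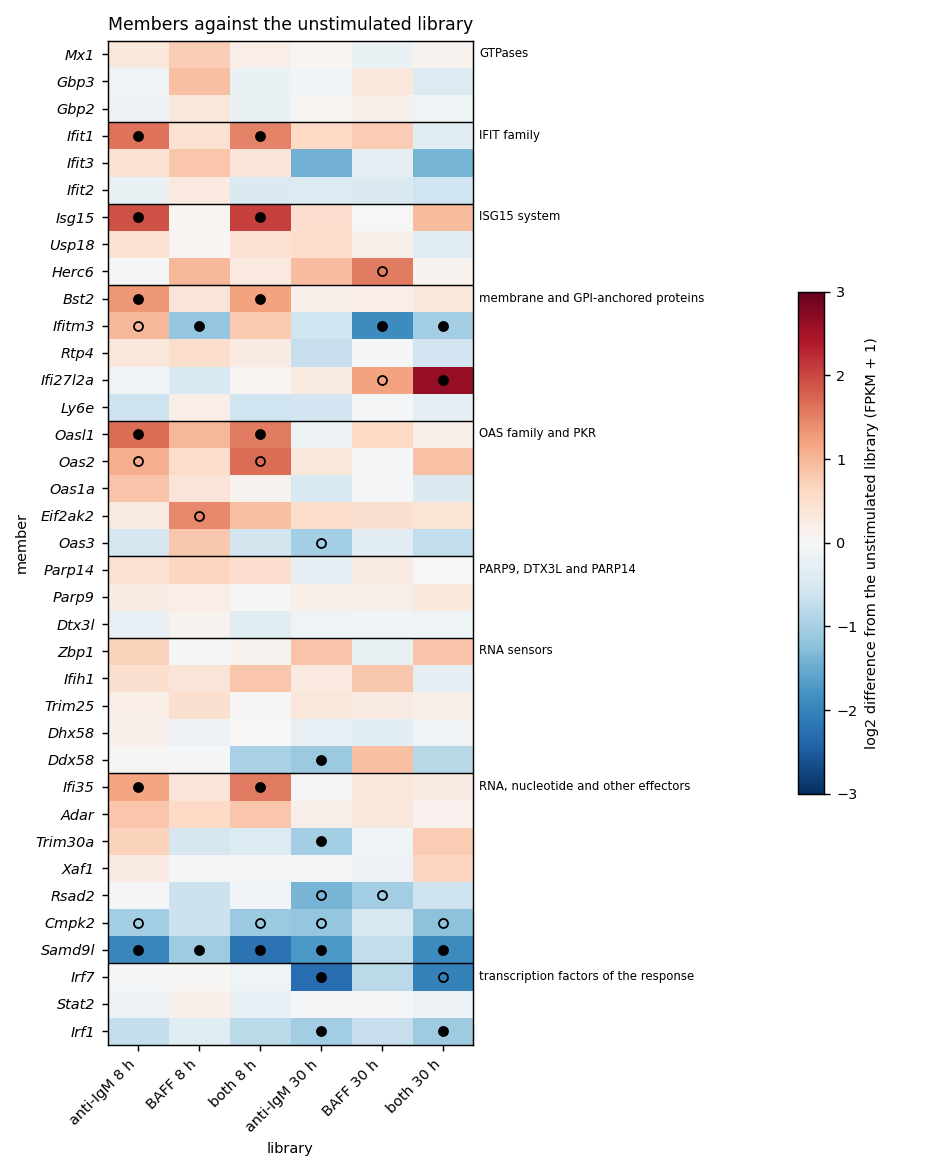
Colour shows the log2 difference in FPKM plus 1 between each stimulated library (columns) and the unstimulated library for the 37 members compared (rows, grouped by role). Circles mark counted differences, filled where the difference held on the exon level, and they lie mainly in the anti-IgM and both columns: 7 members higher with anti-IgM at 8 h, 8 lower with anti-IgM at 30 h.

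Isg15, a ubiquitin-like protein that is attached to other proteins, had the largest counted increase at 8 h. Its level was 11.2 FPKM in the unstimulated library, 45.2 with anti-IgM, 11.8 with BAFF and 49.4 with both at 8 h, and 16.2, 11.1 and 22.7 FPKM in the same order at 30 h. The 2 libraries with anti-IgM at 8 h stood far above the other 5, whose intervals did not reach them, while BAFF alone left Isg15 near the unstimulated level at both times. The log2 difference from the unstimulated library was 1.92 with anti-IgM and 2.05 with both at 8 h, and 1.81 and 1.91 on the exon level.

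The other genes of the ISG15 system showed less. Usp18, the protease that takes ISG15 off its targets and dampens signalling at the receptor, stayed between 4.91 and 9.76 FPKM and was not counted. Herc6, the mouse ligase for ISG15, was counted higher with BAFF at 30 h, at 18.1 against 5.52 FPKM. Its 18.1 FPKM were spread over 5 assembled transcripts, and its exon level was 5.99 there and 5.33 in the unstimulated library, so that the difference did not hold.

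The IFIT proteins bind viral RNA that lacks the marks of the cell's own. Ifit1 stood at 1.76 FPKM in the unstimulated library and at 7.62, 2.79 and 6.75 FPKM with anti-IgM, BAFF and both at 8 h. At 30 h it was at 3.17, 3.64 and 1.21 FPKM. As with Isg15, the pair of libraries with anti-IgM at 8 h was highest, with log2 differences of 1.64 and 1.49 that held, but the gene rested on few reads, 37.4 to 225 over its exons.

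Ifit3 had a different order, with BAFF at 8 h the highest library. It read 7.88 FPKM in the unstimulated library, 11.0, 14.9 and 10.7 at 8 h and 2.25, 6.19 and 2.37 FPKM at 30 h with anti-IgM, BAFF and both. The libraries with anti-IgM at 30 h were thus the lowest, but the unstimulated value had an interval that reached 0, and Ifit3 was not counted against it. On the exon level the same libraries were at 1.69 and 1.35 against 6.49 in the unstimulated one. Ifit2 lay between 3.47 FPKM with both at 30 h and 7.28 with BAFF at 8 h and was not counted.

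Of the OAS family, which makes the short adenylate chains that switch on RNase L, Oasl1 differed most clearly, although the Oasl1 protein lacks that enzyme activity. Oasl1 was at 5.97 FPKM in the unstimulated library and at 21.2, 12.9 and 19.8 FPKM with anti-IgM, BAFF and both at 8 h. By 30 h it was at 5.29, 9.57 and 6.78 FPKM. All 3 stimulated libraries at 8 h lay above the unstimulated one with no overlap of intervals. Only the differences with anti-IgM (1.67) and both (1.57) reached the 2-fold limit, and both held.

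**Figure D2:**
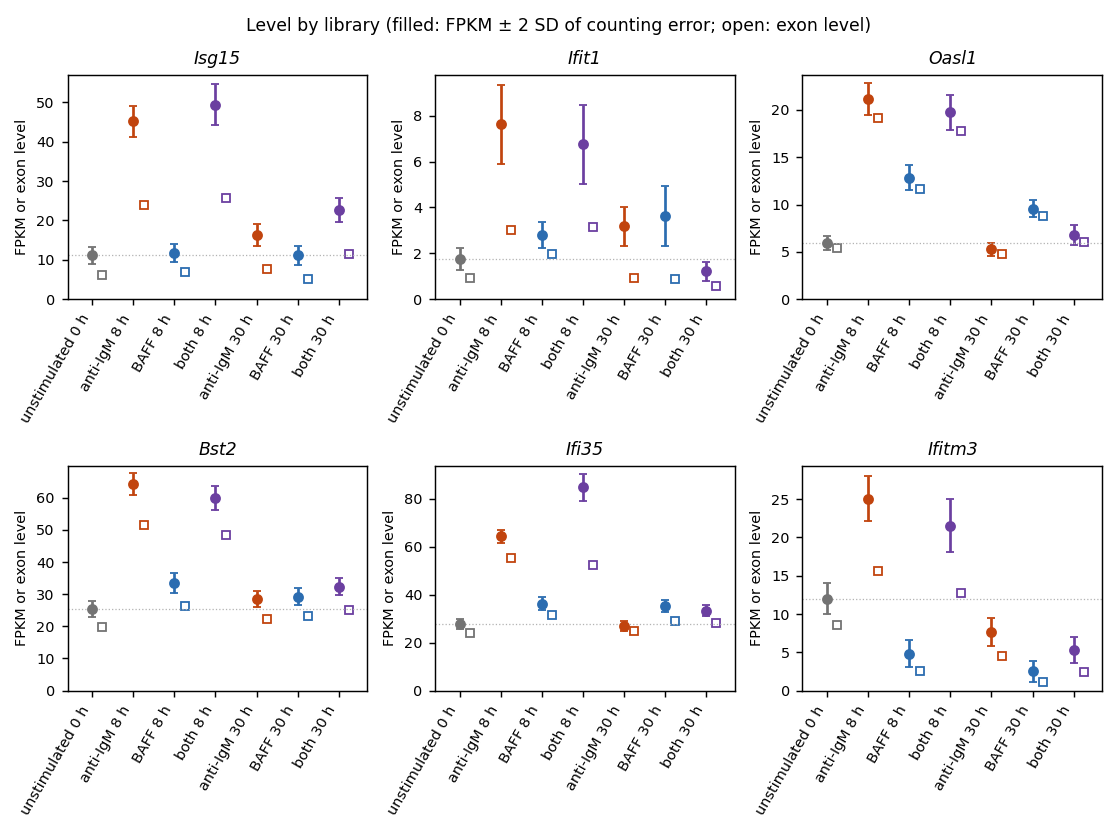
Each panel plots 1 member by library, with filled points for FPKM and bars for 2 SD of counting error. Open squares give the exon level (reads shared out to the exons, per kilobase and depth). The dotted line is the unstimulated FPKM. Isg15, Ifit1, Oasl1, Bst2 and Ifi35 peak in the 2 libraries with anti-IgM at 8 h, and Ifitm3 is above the line there and below it with BAFF.

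Oas2 was counted higher with anti-IgM and with both at 8 h, at 6.78 and 10.7 FPKM against 2.66. Neither difference held, because the exon level was 3.17 and 2.33 beside 2.52 in the unstimulated library. With both stimuli the gene was assembled as 5 transcripts, and in the unstimulated library as 1. Oas3 was counted lower with anti-IgM at 30 h, at 1.39 against 3.82 FPKM, which did not hold either. Oas1a ranged from 3.84 to 11.0 FPKM and was not counted.

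Eif2ak2 encodes PKR, the kinase that stops translation when it binds double-stranded RNA. It was counted higher with BAFF at 8 h, at 21.0 against 7.07 FPKM, with an exon level of 6.59 against 3.90. Its exon level was higher than unstimulated in all 6 stimulated libraries, from 6.59 to 8.89. Some of its assembled transcripts run into neighbouring genes. Oasl2 was assembled in 1 library only, at 2.29 FPKM with anti-IgM at 8 h, from 21.0 reads.

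Among the RNA sensors, Ddx58, which encodes RIG-I, was counted lower with anti-IgM at 30 h. Its FPKM values were 24.99 in the unstimulated library, 25.8, 24.02 and 12.3 at 8 h and 11.1, 47.5 and 13.5 at 30 h with anti-IgM, BAFF and both. The values of 25.8 and 47.5 were sums over 3 and 2 pieces of a gene that elsewhere was mostly assembled whole. On the exon level the pattern was simpler: 23.8 unstimulated, 22.8 and 22.0 with BAFF alone, and 10.4, 11.3, 10.5 and 12.8 in the 4 libraries that had received anti-IgM. The libraries with anti-IgM were thus all below those without it on that measure.

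Zbp1, a sensor of left-handed nucleic acid, was higher in the libraries with anti-IgM at 30 h. It was at 23.1 FPKM unstimulated, 37.9, 22.5 and 25 at 8 h and 42.4, 19.7 and 42.6 FPKM at 30 h with anti-IgM, BAFF and both. It did not reach 2-fold against the unstimulated library, but anti-IgM exceeded BAFF at 30 h by 1.07 on the log2 scale, and this held. Ifih1, which encodes MDA5, stayed between 2.38 and 6.33 FPKM, Dhx58 between 11.7 and 16.9, and Trim25, the ligase that activates RIG-I, between 27.3 and 38.1 FPKM. None of these 3 was counted against the unstimulated library.

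Bst2 encodes tetherin, which holds budding virus at the cell surface. Its level was 25.4 FPKM in the unstimulated library, 64.3, 33.5 and 59.9 at 8 h with anti-IgM, BAFF and both, and 28.5, 29.3 and 32.4 FPKM at 30 h. The 2 libraries with anti-IgM at 8 h were again the highest, by 1.31 and 1.21 on the log2 scale against the unstimulated library, and both differences held. By 30 h the level was back within a narrow range above the unstimulated one.

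Ifitm3, a membrane protein that blocks fusion of enveloped viruses, was the member that went both ways. It was at 12.0 FPKM unstimulated, at 25.1 FPKM with anti-IgM, 4.81 with BAFF and 21.5 with both at 8 h, and at 7.67, 2.53 and 5.30 FPKM in that order at 30 h. Both libraries with BAFF alone were the lowest of their time, and those with anti-IgM lay above them, although at 30 h the intervals with both and with BAFF overlapped. The values with BAFF rested on few reads, 31.0 at 8 h and 14.0 at 30 h. Anti-IgM exceeded BAFF by 2.16 at 8 h and by 1.30 at 30 h on the log2 scale, and both held (2.21 and 1.43 on the exon level). Against the unstimulated library it was counted higher with anti-IgM at 8 h (1.00, which did not hold) and lower with BAFF at 8 h, BAFF at 30 h and both at 30 h, which held. The summed macrophage markers at 8 h were 34.2 FPKM with anti-IgM and 40.4 with BAFF. By exon level they were 313 and 31.1, of which Cd68 alone gave 297 and 4.38, and their part in the difference was not tested.

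Ly6e, a GPI-anchored protein, was by far the most abundant member, at 458 FPKM unstimulated, 298, 527 and 301 at 8 h and 308, 436 and 380 FPKM at 30 h. The 4 libraries with anti-IgM lay below the 3 without it, with no overlap, but by less than 2-fold. Rtp4 lay between 4.34 FPKM with anti-IgM at 30 h and 11.4 with BAFF at 8 h and was not counted.

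Ifi27l2a was counted higher with BAFF (101 FPKM) and with both (274 FPKM) at 30 h, against 43.7 unstimulated. These values rest on transcripts of very different length: 800 and 577 bases in those 2 libraries, 849 in the unstimulated one and up to 2557 in the other 4. Its exon level was 12.6 unstimulated, 54.6, 35.0 and 48.0 at 8 h and 45.5, 24.9 and 43.3 at 30 h, which is higher in all 6 stimulated libraries with no peak at 30 h. The difference for both at 30 h held, at 1.71 on the exon level against 2.62 by FPKM, and that for BAFF did not. In every library the Ifi27l2a transcript also overlapped exons of Ifi27l2b, so these values may not be those of Ifi27l2a alone.

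Irf7, the factor that drives the amplifying wave of interferon genes, was lowest at 30 h by FPKM. Its FPKM was 36.2 unstimulated, 35.2, 37.2 and 33.1 at 8 h and 6.61, 20.01 and 8.11 at 30 h with anti-IgM, BAFF and both. Against the unstimulated library the log2 difference was -2.29 with anti-IgM at 30 h, which held, and -2.03 with both, which did not. Of the unstimulated 36.2 FPKM, 22.4 came from 1 piece of 359 bases. The long transcripts alone summed to 13.8 FPKM there and to 35.2, 37.2 and 33.1 at 8 h, and the exon level gave the same picture, with 13.9 unstimulated and 31.1, 32.1 and 28.5 at 8 h. Thus whether Irf7 at 8 h equalled the unstimulated level or stood about 1 log2 unit above it depended on that piece. The level at 30 h with anti-IgM was lower with or without the piece, at 6.61 against 13.8 FPKM in the long transcripts. With 1 added these values were less than 2-fold apart, so the size of the FPKM difference also depended on the piece. On the exon level Irf7 was at 4.90 there, against 13.9 unstimulated. With BAFF at 30 h the long transcripts summed to 14.9 FPKM and the exon level was 15.1, both slightly above the unstimulated values.

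Irf1, which is induced by interferon-gamma and by NF-kappaB, was highest in the unstimulated library at 74.3 FPKM. It read 44.95, 57.3 and 42.1 FPKM at 8 h and 35.7, 45.5 and 35.0 FPKM at 30 h with anti-IgM, BAFF and both. The differences with anti-IgM (-1.04) and both (-1.07) at 30 h were counted and held. Stat2, a part of ISGF3, stayed within 26.5 to 34.9 FPKM. Irf9, another part of that complex, had only an exon level, which lay between 21.3 with BAFF at 30 h and 35.2 with BAFF at 8 h. That value comes from transcripts fused with Rnf31, so it does not separate Irf9 from Rnf31.

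**Figure D3:**
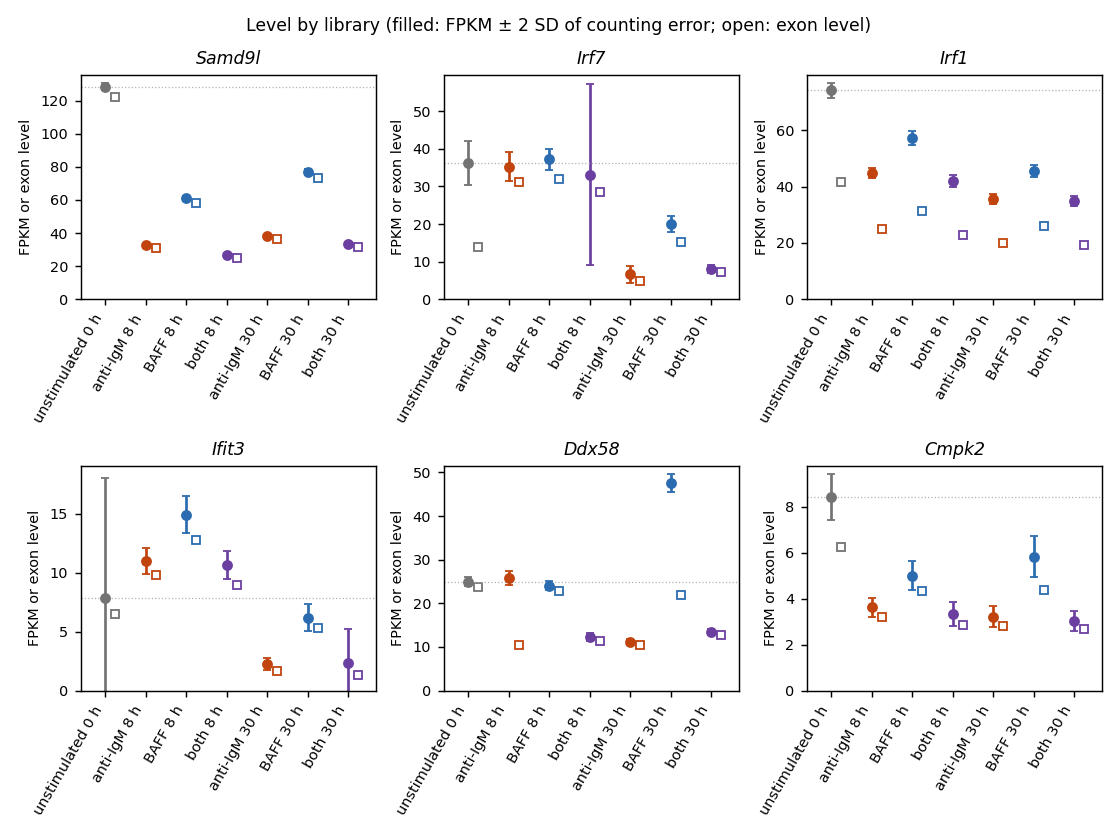
Each panel plots 1 member by library, with filled points for FPKM, bars for 2 SD of counting error and open squares for the exon level. Samd9l, Irf1 and Cmpk2 are highest in the unstimulated library, Irf7 and Ifit3 are lowest at 30 h with anti-IgM, and the exon level of Ddx58 is low wherever anti-IgM was given.

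Samd9l, a restriction factor of poxviruses, was counted lower in more comparisons than any other member. It stood at 128 FPKM unstimulated, at 32.5, 61.1 and 26.7 at 8 h and at 38.3, 76.8 and 33.6 FPKM at 30 h with anti-IgM, BAFF and both. Every stimulated library was below the unstimulated one, and the 4 with anti-IgM were below the 2 with BAFF alone. Samd9l was counted lower in 5 of the 6 comparisons, all but BAFF at 30 h, and each held, with log2 differences from -1.06 to -2.22. The summed markers of macrophages, conventional dendritic cells, erythroid cells and T cells, too, were highest in the unstimulated library. Their part in this result and in those of Irf1 and Cmpk2 was not tested.

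Ifi35, which binds the partner protein Nmi, was higher with anti-IgM. It was at 27.8 FPKM unstimulated, 64.3, 36.3 and 84.8 at 8 h and 27.0, 35.4 and 33.3 FPKM at 30 h with anti-IgM, BAFF and both. The log2 differences at 8 h were 1.18 with anti-IgM and 1.57 with both, and both held. The apparent step from anti-IgM to both was not seen on the exon level, at 55.5 and 52.5.

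Cmpk2, a mitochondrial nucleotide kinase, was at 8.43 FPKM unstimulated and at 3.62, 5.0, 3.33, 3.22, 5.82 and 3.02 FPKM in the 6 stimulated libraries, taken in the same order as above. It was counted lower in the 4 comparisons with anti-IgM present, and none of them held, with exon differences between -0.79 and -0.98. Its neighbour Rsad2, which encodes viperin and is transcribed from the opposite strand nearby, was counted lower with anti-IgM and with BAFF at 30 h, at 0.823 and 1.33 FPKM against 3.82, and neither held. Read over the exons, Rsad2 was at 1.58 unstimulated, 3.40, 1.90 and 3.27 at 8 h and 0.447, 0.765 and 0.297 at 30 h.

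Adar, the enzyme that edits adenosine in double-stranded RNA, was at 26.4 FPKM unstimulated, at 47.9, 40.1 and 48.2 at 8 h and at 29.9, 33.7 and 28.8 FPKM at 30 h. All 3 libraries at 8 h were above the other 4 without overlap, by less than 2-fold. Xaf1 lay between 17.0 and 30.7 FPKM and was not counted.

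Trim30a followed neither stimulus nor time. It was at 99.0 FPKM unstimulated, 159, 69.7 and 74.3 at 8 h and 48.6, 91.2 and 168 FPKM at 30 h with anti-IgM, BAFF and both. It was counted in 6 of the 15 comparisons, each time holding on the exon level, yet adding BAFF to anti-IgM went with a lower level at 8 h (-1.09) and a higher one at 30 h (1.77). The gene lies in a cluster of closely related copies, among which Trim30d, Trim30b and Trim12a were assembled in some libraries and not in others. Its values are therefore uncertain.

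Of the GTPases and the PARP9 group none was counted against the unstimulated library. Mx1 stayed between 5.18 and 10.8 FPKM, Gbp2 between 8.89 and 13.5, Parp9 between 19.1 and 24.8, Parp14 between 13.5 and 26.5 and Dtx3l between 14.2 and 19.5 FPKM. Gbp3 was the exception among them, at 33.9 FPKM with BAFF at 8 h and 13.0 to 22.1 FPKM in the other 6 libraries. It was 17.6 FPKM unstimulated and was not counted against that library, but anti-IgM and both at 8 h differed from BAFF by -1.05 and -1.10 on the log2 scale, and both held.

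**Figure D4:**
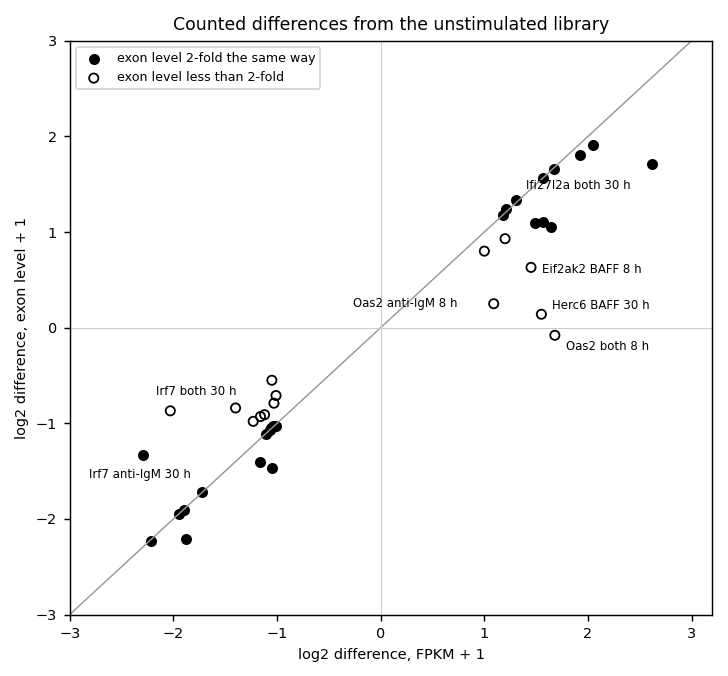
Each point is 1 of the counted differences between a stimulated library and the unstimulated one, with the log2 difference in FPKM plus 1 on the x axis and that of the exon level plus 1 on the y axis. Filled points held on both measures and mostly lie near the diagonal, apart from Irf7 with anti-IgM and Ifi27l2a with both at 30 h, and the largest departures are Oas2 and Herc6, near 0 on the exon level.

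Several members are neighbours in the genome (build mm10, positions from the merged transcript set), and neighbours were alike in some respects and not in others. The IFIT genes lie within chr19:34550694-34650009, where Ifit1 was highest with anti-IgM at 8 h and Ifit2 and Ifit3 with BAFF at 8 h. Oas2, Oas3 and Oas1a lie within chr5:120730333-120907525 and had their highest FPKM in different libraries, namely both, BAFF and anti-IgM at 8 h. Their highest exon levels were with BAFF, anti-IgM and both at 8 h, in the same order of genes. On the exon level these OAS genes and the IFIT genes were all lower at 30 h than at 8 h under each stimulus. So were 52.6% of members and 36.8% of all genes. Gbp3 and Gbp2, within chr3:142560052-142638008, were both highest with BAFF at 8 h. Parp9 and Dtx3l start on opposite strands in the same stretch of chromosome 16, with Parp14 beside them, and all 3 stayed within a range of less than 2-fold.

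Anti-IgM and BAFF were compared directly at each time. At 8 h anti-IgM had 4 members higher than BAFF and 4 lower (background 4.88% and 8.43%). Isg15, by 1.85 on the log2 scale, Ifitm3 and Trim30a were higher and held, and Gbp3 was lower and held. At 30 h 2 members were higher with anti-IgM, Ifitm3 and Zbp1, and 3 were lower (background 3.99% and 4.71%). The lower ones that held were Irf7, at 6.61 against 20.01 FPKM, and Ifit3, at 2.25 against 6.19 FPKM. The median over the members at 30 h was -0.34, and 26 of the 37 were below 0, where the median over all genes was 0.00.

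The libraries with both stimuli were also set against those with anti-IgM alone. At 8 h the log2 difference was above 0 for 27.0% of members and 54.0% of all genes. At 30 h it was so for 56.8% of members and 41.8% of all genes. At 8 h no member was counted higher and 2 were counted lower than with anti-IgM alone (background 4.38% and 1.86%). These were Trim30a, which held, and Ddx58, whose exon level was 11.3 against 10.4. At 30 h 2 were higher and none lower (background 2.11% and 3.27%), Trim30a, which held, and Ifi27l2a, which did not. Adding anti-IgM to BAFF gave 5 members higher and 3 lower at 8 h (background 5.62% and 6.81%), of which Isg15 and Ifitm3 were higher and Samd9l and Gbp3 lower on both measures. At 30 h it gave 2 higher and 6 lower (background 3.03% and 5.09%), and of the 8 only Samd9l held, at -1.17.

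A split of the libraries at 8 h shows how general the anti-IgM pattern was. Both libraries with anti-IgM lay above both the BAFF and the unstimulated library, without overlap of intervals, for 8 of the 37 members (21.6%) and for 19.97% of all genes. They lay below both for 7 members (18.9%) and for 15.0% of all genes. Members thus divided in proportions near those of all genes. The upper set was Isg15, Ifit1, Oas2, Oasl1, Ifi35, Ifitm3, Bst2 and Adar, and the lower set Irf1, Stat2, Oas3, Dtx3l, Cmpk2, Samd9l and Ly6e. By exon level 7 of the 8 were above as well, all but Oas2, and 6 of the 7 below, all but Oas3. The exon level of Oas3 was 2.26 with anti-IgM and 2.18 with both, against 1.795 with BAFF and 0.801 unstimulated, which is the other direction. At 30 h only Zbp1 lay above (2.70%, beside 14.7% of all genes) and 7 members (18.9%, beside 13.9%) lay below: Irf1, Irf7, Ddx58, Rtp4, Cmpk2, Samd9l and Ly6e.

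Between 8 h and 30 h the median over the members was lower at the later time under each stimulus, and the most members were counted lower with anti-IgM. With anti-IgM no member was counted higher at 30 h and 13 were lower, beside 8.01% and 5.38% of all genes, and 11 of the 13 held. They were Isg15, Ifit1, Ifit3, Irf7, Oasl1, Rsad2, Ifi35, Ifitm3, Bst2, Rtp4 and Trim30a. With both stimuli 2 were higher and 7 lower (background 5.58% and 6.95%), and Isg15, Ifit1, Ifit3, Oasl1 and Ifitm3 were lower and held, while Trim30a was higher and held. With BAFF 1 was higher and 2 were lower (background 3.64% and 4.2%), of which Ifit3, at -1.15, held.

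The medians over the members were -0.33, -0.21 and -0.22 with anti-IgM, BAFF and both, against -0.02, -0.05 and -0.12 over all genes. These 3 comparisons share no library with one another. A level below that at 8 h under all 3 stimuli, of any size, was found for 18 of the 37 members (48.6%) and for 30.3% of 9370 genes. A level above it under all 3 was found for 2 members, Samd9l and Ifi27l2a, and for 20.2% of all genes. On the exon level 20 of 38 members, Irf9 included, were below under all 3 (52.6%, beside 36.8% of all genes). Ifi27l2a was among these, so its direction turned, and the 2 above were Samd9l and Parp9, beside 25.99% of all genes. The FPKM steps were -2.25, -0.86 and -1.90 with anti-IgM, BAFF and both for Irf7, and -1.88, -1.15 and -1.79 for Ifit3. They were -1.59, -0.72 and -1.84 for Ifitm3, and -1.82, -0.39 and -1.42 for Oasl1.

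**Figure D5:**
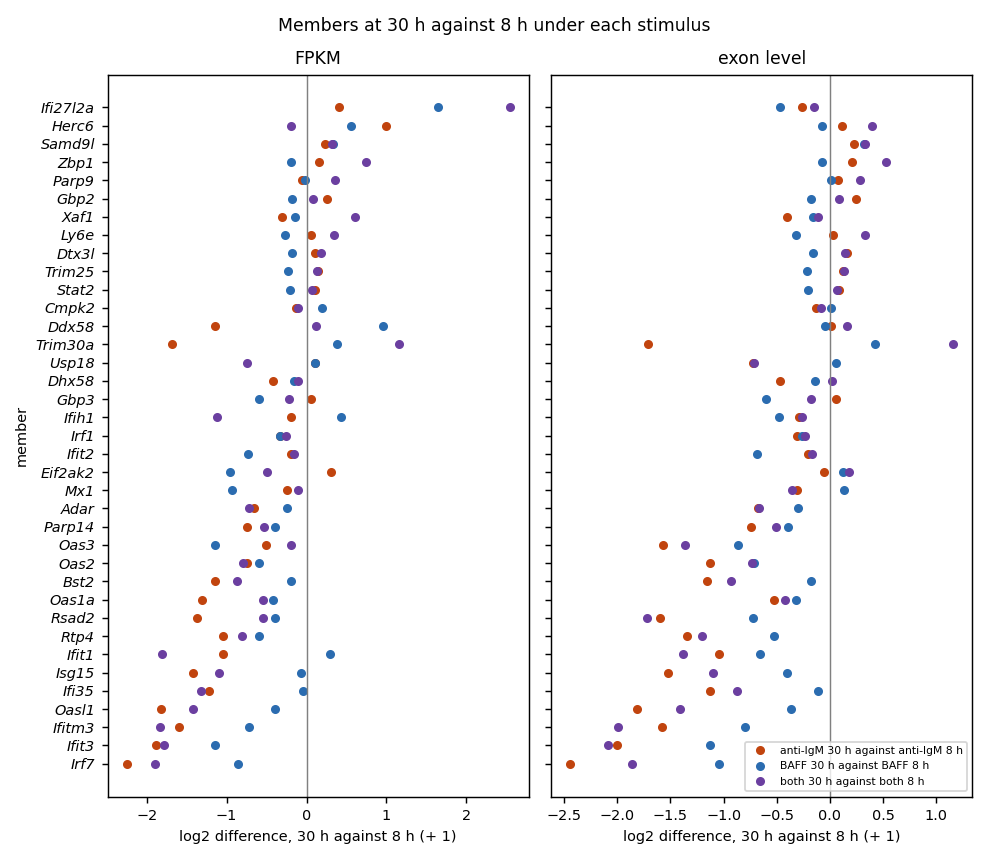
Points give the log2 difference between 30 h and 8 h for each member (rows) under anti-IgM, BAFF and both, from FPKM plus 1 on the left and from the exon level plus 1 on the right. Most points lie left of 0, with Irf7, Ifit3, Ifitm3 and Oasl1 among the lowest and the points for BAFF alone closest to 0 for Isg15, Oasl1, Ifi35 and Bst2.

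The library with the highest or lowest level was also counted. BAFF at 8 h was the highest library for 14 of the 37 members (37.8%), beside 16.5% of 9252 genes, and anti-IgM at 30 h was the lowest for 11 members (29.7%), beside 11.4%. Anti-IgM at 8 h was the highest by FPKM for 6 members (16.2%), beside 15.5% of all genes. On the exon level BAFF at 8 h and anti-IgM at 8 h were each highest for 12 members (32.4%), beside 15.8% and 19.2% of all genes. The unstimulated library was the lowest for 4 members (10.8%) and for 28.8% of all genes by FPKM, and for 8 members (21.6%) and 35.1% of all genes on the exon level.

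The genes that start and carry the response were mostly not counted. Over the 6 comparisons with the unstimulated library, 5.21% to 12.3% of all genes were counted higher and 4.1% to 10.6% lower. With so few genes on each list, none counted higher is therefore no result about a list. Of 18 interferon genes, none of the type I or type III genes was assembled in any library, and Ifng was assembled in 3, at 2.17 FPKM unstimulated, 3.22 with anti-IgM and 2.01 with both at 8 h. The receptor gene Ifnar1 lay between 19.5 and 34.2 FPKM. Ifnar2 was at 75.5 FPKM unstimulated, 20.6, 55.2 and 27.9 at 8 h and 36.5, 65.9 and 26.1 FPKM at 30 h with anti-IgM, BAFF and both. It was counted lower in the 4 comparisons with anti-IgM, none of which held. Ifngr1 was at 44.4 FPKM unstimulated and 17.3 to 25.2 FPKM in the 4 libraries with anti-IgM, and was counted lower and held with anti-IgM alone at both times. No member of this list of 11 receptor and JAK-STAT genes, of which 9 were compared, was counted higher.

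Of 6 other interferon regulatory factors 5 were compared, and Irf3, the factor that sensors activate directly, was the one counted against the unstimulated library, lower at 30 h with anti-IgM and with both, at 42.9 and 40.7 against 104 FPKM, without holding. Irf4, a factor of B cell activation, was at 89.8 FPKM unstimulated and 171, 83.0 and 155 at 8 h with anti-IgM, BAFF and both, within 2-fold of that library by FPKM. Its exon level was 69.6 unstimulated, and 165 with anti-IgM and 149 with both at 8 h, which is more than 2-fold. Irf4 was counted higher with anti-IgM than with BAFF at 8 h and lower with both at 30 h (69.0 FPKM) than at 8 h, and each held. Of 11 negative regulators, Socs3, which inhibits the JAK kinases, was lower in all 6 stimulated libraries, at 1.47 to 4.70 FPKM against 17.1, and no regulator was counted higher. Among 20 genes of nucleic acid sensing, Rnaseh2b, a subunit of RNase H2, was at 9.45 FPKM unstimulated and at 12.2 to 31.6 FPKM in the other libraries, and Samhd1, which degrades deoxynucleotides, was at 153 against 57.4 to 115 FPKM. Tmem173 was counted higher with BAFF at 8 h, at 93.7 against 40.7 FPKM, and held. Mavs was counted higher with anti-IgM at 8 h and with both at 30 h, at 15.6 and 14.7 against 6.43 FPKM, without holding. Of 17 genes for interferon-gamma inducible GTPases, Gbp4 was counted lower in all 6 comparisons, at 8.98 to 18.3 against 41.05 FPKM, though this did not hold, and none was higher.

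A further list of 73 interferon-stimulated genes that are not members was counted in both directions. With anti-IgM at 8 h 57 of them were compared, 5 were higher and 6 lower, with a median of -0.05, where 10.8% and 10.6% of all genes were higher and lower. With BAFF and with both at 8 h 3 and 7 were higher and 4 and 5 lower, and at 30 h 5, 3 and 6 were higher and 4, 3 and 4 lower with anti-IgM, BAFF and both, beside the shares of all genes given above for these comparisons. Nampt, an enzyme of NAD synthesis, was at 15.6 FPKM unstimulated and 90.7, 24.5 and 90.1 at 8 h with anti-IgM, BAFF and both. Casp4 was at 10.7 FPKM unstimulated and at 49.7, 17.4 and 51.4, and Sp140, a nuclear body protein, at 31.9 and at 133, 87.8 and 147 FPKM in the same libraries. Trim12c, from the cluster that holds Trim30a, was at 35 FPKM unstimulated and at 166, 145 and 117 FPKM, with the same uncertainty. Tnfsf10, which encodes the death ligand TRAIL, was at 7.78 FPKM unstimulated and 1.25 with BAFF at 30 h, a difference that did not hold, with exon levels of 1.68 and 1.11. Ifitm2, from the gene cluster that holds Ifitm3, was highest at 30 h, at 35.7 FPKM with anti-IgM and 24.6 with both, against 5.73 unstimulated and 8.47 with BAFF, where Ifitm3 had its lower values.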

How the data were processed

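RNA was measured in 7 libraries of mouse B cells, 1 per condition, from poly-dT primed cDNA, per the labels' protocols. Per the submitters' processing notes, CASAVA 1.8.2, TopHat2 2.0.5, Bowtie2 2.0.0.7 and Cufflinks 2.0.2 were used, with genome build mm10. The authors deposited transcript FPKM with a lower and an upper bound for each library, and a merged transcript set without values. Genes were named from that set, by exon overlap on the same strand. Transcripts under 300 bases, which made up 66.6% to 74.4% of the summed FPKM, were left out.

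The counting rule used a pseudocount of 1 and needed 1 FPKM in 1 of the libraries compared and assembly in both. It was applied to all genes in 15 comparisons and tested on simulated data. Reads were calculated back from FPKM and length; 88.7% to 90.2% of the pieces that stood alone in their locus came within 0.05 of a whole read, and no count test was run. A single library gives precision for counting error only. The members and gene lists were chosen with earlier results of these data known. Values in every library are given for members counted against the unstimulated library, ranges for most others, and up to 6 counted genes of each other list. Adar, Ifit3, Zbp1, Ly6e and Gbp3 were also given in full after their values were seen, as were Irf7's pieces and the relatives of Trim30a, and Irf4, Ifnar1 and Ifng, which lie outside this rule, were named after their values were seen. Promoter windows came from RefSeq, build GRCm38.p6. Computation was in Python 3.11.15 (pandas 2.3.3 with numpy 2.4.6), and figures were drawn in matplotlib 3.10.9. The alternatives were another pseudocount (0.1 and 5), other limits, 2 scalings, all pieces, and the exon level.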

Additional observations from a re-analysis of the deposited data

Results flagged for a closer look

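Ifitm3 differed from the unstimulated library in opposite directions under the 2 single stimuli at 8 h. Its log2 difference was 1.00 with anti-IgM and -1.16 with BAFF. The difference between these effects was not tested, because each condition was 1 library and both comparisons share the unstimulated one. Set against each other directly, the libraries read 25.1 FPKM with anti-IgM and 4.81 with BAFF, with exon levels of 15.6 and 2.58.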

How the results depend on the processing

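The number of members counted moved by over 1.5 times in these cases. The alternative counts were made over the members only, so no share of all genes stands beside them. With a limit of 1.5-fold in place of 2-fold, the counts against the unstimulated library were 15 with anti-IgM, 12 with BAFF and 14 with both at 8 h, and 13, 11 and 15 at 30 h. They were 15 and 12 for anti-IgM against BAFF at 8 h and 30 h, 5 and 7 for both against anti-IgM, 13 and 14 for both against BAFF, and 11 with BAFF and 16 with both for 30 h against 8 h. A pseudocount of 5 left 5 for anti-IgM at 8 h, 2 for anti-IgM and 3 for both at 30 h against the unstimulated library, 3 and 2 for anti-IgM against BAFF, 1 for both against anti-IgM at 8 h, 4 and 4 for both against BAFF, and 8 with anti-IgM and 1 with BAFF for 30 h against 8 h. A pseudocount of 0.1 gave 5 for BAFF at 8 h against the unstimulated library, 4 for both against anti-IgM at 30 h and 5 for BAFF at 30 h against 8 h. By exon level there were 1 for BAFF at 30 h against the unstimulated library, 5 for anti-IgM against BAFF at 8 h, 1 and 1 for both against anti-IgM, and 4 and 3 for both against BAFF.

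Removing the filter, asking for 5 FPKM, using pieces of any length, dropping the interval rule, and scaling to the same median or upper quartile kept all 15 counts within 1.5 times. Of 38 counted differences from the unstimulated library, the direction turned for Oas2 with both at 8 h by exon level (-0.08) and for Rsad2 with BAFF at 30 h when pieces of any length were used (0.86), and the cause was not tested. The exon level kept 24 of 37 of them past the limit, and over the same 37 members it raised the median with anti-IgM at 8 h from 0.24 to 0.52 and with both from 0.08 to 0.28. Median and upper quartile scaling turned the median with both at 8 h to -0.08 and -0.09. No paired analysis was possible because each condition was 1 library. Few reads limit the precision of low members: Ifit1, Ifit2, Mx1, Oas2, Oas3, Usp18, Rsad2, Ifih1 and Cmpk2 lay under 11 FPKM in every library. The same limit applies to Ifitm3 with BAFF, at 31.0 reads at 8 h and 14.0 at 30 h.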
